A study of Rattus norvegicus with 10 samples.

Results

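Gbp6, Ifi27l2b and Cxcl13 are 3 of the 32883 genes in a count table made from myeloid (CD11b+) cells of the bleeding-injured rat striatum, and they were chosen from the measured values of these libraries, in which 1 library of the ICH + rhCDNF group, S6, stood far above the rest. CD11b is an integrin on the surface of microglia, monocytes and macrophages. The rats were male Sprague-Dawley animals, 12 weeks old by the study's methods, with an intracerebral hemorrhage (ICH) made in the right striatum. They received recombinant human CDNF (rhCDNF) or saline into the cerebral ventricle 1 h later. All 10 libraries therefore come from injured brain, none from an uninjured control, and they comprise 5 ICH + saline libraries (S1, S2, S3, S4 and S5) and 5 ICH + rhCDNF libraries (S6, S7, S8, S9 and S10) taken on day 3. Libraries are called here by the index in the column names of the count table, since the sample titles carry a numbering of their own within each group. The methods describe both collagenase and autologous blood models and count animals as n, but the sample labels do not state which model each sequenced rat received. CD11b+ cells were collected on magnetic columns after myelin removal, and ribosomal RNA was removed before sequencing. The libraries held 14376582 to 16784638 counts, so depth varied little between groups. Ifi27l2b is row ENSRNOG00000026605 of the table. Gbp6 (ENSRNOG00000002134) and Cxcl13 (ENSRNOG00000024899) were tied to their rows by their values, as was every other gene named here, and a wrong name stays possible for any of them.

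Interferons are cytokines that cells release on sensing viruses, foreign or misplaced nucleic acid, or, for interferon gamma, when T and NK cells are activated. Type I interferons act largely through promoters with an interferon-stimulated response element (ISRE), and interferon gamma through the gamma-activated sequence (GAS) and the factor Irf1. Gbp6 encodes a guanylate-binding protein, a family of large GTPases that are strongly induced by interferon gamma and act against intracellular pathogens. Ifi27l2b belongs to the family of Ifi27, small hydrophobic proteins induced mainly by type I interferon. Cxcl13 encodes the chemokine that draws B cells and follicular helper T cells through the receptor Cxcr5. It is known chiefly from lymphoid stroma and from myeloid cells at inflamed sites.

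The promoters of the members, where known, are shown beside those of the guanylate-binding genes Gbp2 and Gbp5, because all 4 genes were high in library S6. Each is the RefSeq sequence of build GRCr8, from 250 bases before to 50 bases after the annotated start, with matches to the ISRE letters (GAAA and GAAA with any 2 bases between them) on either strand in capitals.
Gbp6 (chr14:5034749-5035048, plus strand): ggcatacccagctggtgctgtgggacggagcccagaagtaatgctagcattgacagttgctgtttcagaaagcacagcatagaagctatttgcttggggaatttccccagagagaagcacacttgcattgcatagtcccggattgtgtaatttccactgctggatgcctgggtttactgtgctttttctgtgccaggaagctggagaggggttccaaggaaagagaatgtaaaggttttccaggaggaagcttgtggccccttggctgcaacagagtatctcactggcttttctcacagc
Cxcl13 (chr14:13917871-13918170, minus strand): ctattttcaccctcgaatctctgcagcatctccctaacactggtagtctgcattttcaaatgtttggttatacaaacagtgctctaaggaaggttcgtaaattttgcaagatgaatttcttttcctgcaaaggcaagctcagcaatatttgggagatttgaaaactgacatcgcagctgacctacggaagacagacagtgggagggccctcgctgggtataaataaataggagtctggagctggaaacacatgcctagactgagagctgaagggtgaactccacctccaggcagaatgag
Gbp2 (chr2:234005477-234005776, plus strand): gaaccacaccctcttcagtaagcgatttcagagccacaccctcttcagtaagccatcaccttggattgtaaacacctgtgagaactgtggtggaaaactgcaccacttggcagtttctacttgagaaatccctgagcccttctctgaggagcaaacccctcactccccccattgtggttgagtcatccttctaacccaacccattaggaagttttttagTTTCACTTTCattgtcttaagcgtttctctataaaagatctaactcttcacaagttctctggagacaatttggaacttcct
Gbp5 (chr2:233910749-233911048, plus strand): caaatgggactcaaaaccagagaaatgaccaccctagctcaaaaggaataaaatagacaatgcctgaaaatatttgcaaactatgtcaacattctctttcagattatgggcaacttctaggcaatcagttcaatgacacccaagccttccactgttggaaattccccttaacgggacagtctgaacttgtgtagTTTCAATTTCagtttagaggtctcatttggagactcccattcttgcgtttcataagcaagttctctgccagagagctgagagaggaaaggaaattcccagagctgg
The ISRE letters were found in 7 of the 9 named interferon genes with a promoter in the table, namely Gbp2, Gbp4, Gbp5, Cxcl10, Oasl2, Bst2 and Ifitm2, against 3.92% of 33365 distinct promoters. The match in Gbp2 began at position -31 from the start and that in Gbp5 at -56. Neither Gbp6 nor Cxcl13 had a match to the ISRE or to the GAS letters TTCNNNGAA (8.88% of all promoters) in this window, which says only that these letters are not there. Of the 9 interferon genes, 2 had a GAS match, Irf1 and Bst2. Ifi27l2b had no sequence in the table used.

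Gbp6 was nearly silent in 9 libraries and clear in 1. The ICH + saline libraries held 9, 8, 4, 5 and 7 counts, in the order given above, which is 0.53, 0.53, 0.26, 0.34 and 0.50 CPM (counts scaled to library size, TMM factor included). The ICH + rhCDNF libraries held 440, 4, 12, 9 and 4 counts, or 25.7, 0.27, 0.83, 0.59 and 0.28 CPM. The 4 other rhCDNF libraries lay across the saline range. Library S6 alone held 87.6% of all Gbp6 counts, and its 95% exact counting interval of 23.4 to 28.3 CPM did not overlap that of any other library. Its level was 31.0 times that of S8, the next library.

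Ifi27l2b showed the same top library over a broader floor. It stood at 1.71, 4.46, 3.72, 3.50 and 2.64 CPM in the ICH + saline libraries (29, 67, 57, 51 and 37 counts). In the ICH + rhCDNF libraries it stood at 37.9, 3.33, 1.38, 6.14 and 1.75 CPM (647, 50, 20, 93 and 25 counts). Library S6 held 60.1% of the counts and stood at 6.16 times the level of S9, the next library. The counting intervals of libraries S9 (4.96 to 7.53 CPM) and S2 (3.46 to 5.66 CPM) overlapped, while that of S9 lay above those of the 7 remaining libraries.

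Cxcl13 was present at low level in every library and high in 1. The ICH + saline libraries gave 1.59, 1.33, 0.46, 3.02 and 1.501 CPM (27, 20, 7, 44 and 21 counts). The ICH + rhCDNF libraries gave 57.8, 0.80, 0.83, 2.38 and 1.54 CPM (988, 12, 12, 36 and 22 counts). Library S6 held 83.1% of the counts, at 19.1 times the level of S4, a saline library. These intervals cover counting error only and not the spread between animals. The reads carried no molecular identifiers, so copies of 1 molecule could not be told apart.

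**Figure D1:**
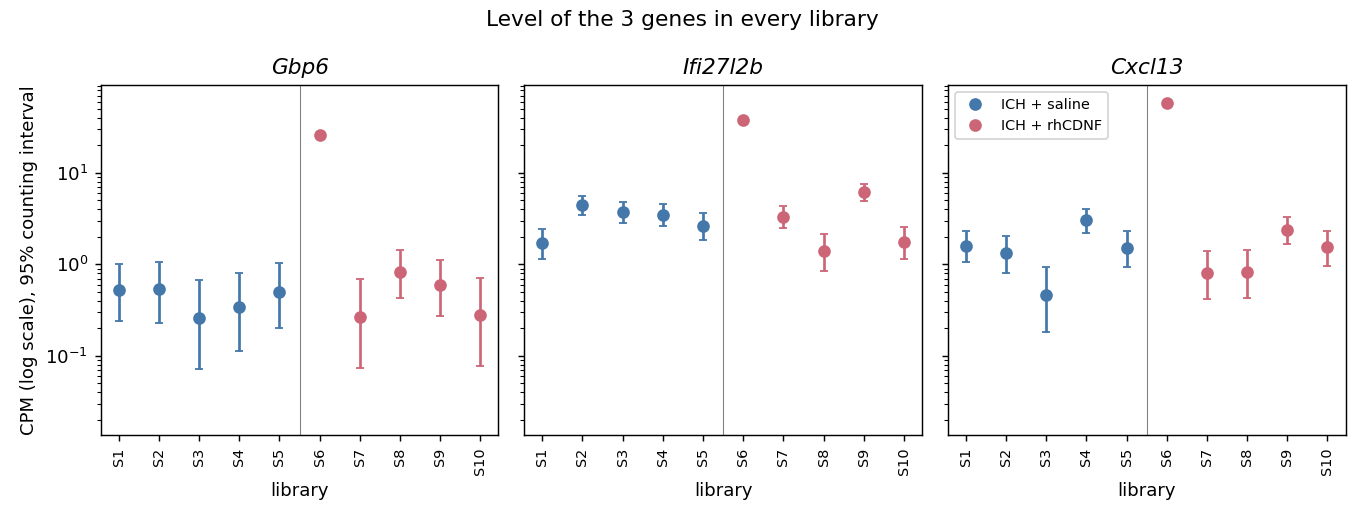
CPM of Gbp6, Ifi27l2b and Cxcl13 (log axis) in each of the 10 libraries, ICH + saline at left and ICH + rhCDNF at right of the line, with 95% exact counting intervals. Library S6 stands at 25.7, 37.9 and 57.8 CPM, and the other 9 libraries of each gene overlap between the groups.

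The group means carried that library. Gbp6 averaged 0.43 ± 0.12 CPM (SD, n = 5) in ICH + saline and 5.54 ± 11.3 CPM (SD, n = 5) in ICH + rhCDNF. Without library S6 the rhCDNF mean was 0.49 ± 0.27 CPM (SD, n = 4). Ifi27l2b averaged 3.21 ± 1.06 CPM in saline, 10.1 ± 15.6 CPM in rhCDNF and 3.15 ± 2.17 CPM in the 4 rhCDNF libraries that remain. For Cxcl13 the same means were 1.58 ± 0.92, 12.7 ± 25.2 and 1.39 ± 0.74 CPM. In every case the SD of the rhCDNF group exceeded its mean with library S6 and did not without it.

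As a description, since these genes were chosen on this contrast, the fitted log2 fold change of rhCDNF against saline was 3.67 (SE 1.19) for Gbp6, 3.02 (SE 1.20) for Cxcl13 and 1.68 (SE 0.81) for Ifi27l2b. Without library S6 it was 0.17 (SE 0.42) for Gbp6, -0.18 (SE 0.46) for Cxcl13 and -0.014 (SE 0.40) for Ifi27l2b, so the residual differences were smaller than their errors and 2 of the 3 changed sign. Gbp6 reached 10 counts in 2 libraries only and was dropped by the filter on low counts, so its fits are those without the filter. Weighting libraries by their spread, which gave library S6 the lowest weight of 0.347, brought Ifi27l2b to 0.04 (SE 0.55) and Cxcl13 to 0.41 (SE 0.76).

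Across the 12199 genes tested with edgeR's quasi-likelihood test, the adjusted p stayed above 0.05 for all, so that 0 were higher and 0 lower, a background of 0% in each direction. Unadjusted p-values fell under 0.05 for 841 genes in the higher and 670 in the lower direction, 6.89% and 5.49%. DESeq2 called 8 genes higher and 0 lower, of which 0 belonged to the interferon lists, and limma-voom with library weights called 0.

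Library S6 was the extreme library for many genes. It was the highest of the 10 libraries for 2542 genes (20.8%) and the lowest for 2738 (22.4%), against 5.13% to 11.5% highest for each of the others. It exceeded the next library more than 3 times for 19 genes (0.156%), where the others did so for 0 to 5. Among the 12200 genes tested or described here, the excess of library S6 over the median of the other 9 placed Gbp6, Cxcl13 and Ifi27l2b at ranks 2, 3 and 4, at 5.36, 5.15 and 3.45 on the log2 scale. The 3 genes were chosen from these values, so their ranks restate that choice and are a description. Gbp6 did not pass the filter on low counts and was added to the ranking, while other genes dropped by the filter were not ranked.

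Other interferon-induced genes stood high in the same library at smaller size. From lists of 94 interferon-induced genes, 18 names were in the supplementary rows used and 17 could be tied to an identifier, 15 of them other than Gbp6 and Ifi27l2b. Of these 15, library S6 was the highest in 13, against the background of 20.8%, and more than 2 times the next library in 7, against 0.533%. Their median excess was 1.64 on the log2 scale, beside 0.00 over all genes tested. The names came from the rows with the smallest p-values of this contrast, so these shares are descriptions and not comparable with the background as a test.

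Of the 15 genes, the guanylate-binding genes Gbp2 and Gbp5 stood highest above the next library, and their relative Gbp4 less so. Gbp2 stood at 47.2 to 71.0 CPM in saline, at 434 CPM in library S6 and at 60.8 to 113 CPM in the other rhCDNF libraries. Gbp5 stood at 17.4 to 20.9, 116 and 20.3 to 34.9 CPM in the same order. Gbp4 rested at 7.97 to 11.2 CPM in saline and reached 29.5 CPM in library S6. Library S6 was thus 3.85, 3.33 and 2.27 times the next library for Gbp2, Gbp5 and Gbp4, and that next library was S9 each time. All 3 encode GTPases of the Gbp6 family, whose rat members include near-identical copies, so reads could be split between them.

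Among regulators of the gamma response, Irf1, the transcription factor that drives many of these promoters, reached 186 CPM in library S6 against 60.0 to 88.5 CPM in saline. Nlrc5 and Ciita, the activators of MHC class I and class II transcription, reached 98.1 and 48.0 CPM against saline ranges of 35.1 to 48.9 and 16.2 to 21.7 CPM. Cxcl10, the chemokine for activated T cells through Cxcr3, reached 74.7 CPM against 13.7 to 26.8 CPM. For each of the 4 genes the library lay above every other library.

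The type I genes divided. Mx2, a dynamin-like antiviral GTPase, stood at 142 CPM in library S6 and 11.3 to 38.2 CPM in saline. Oas2, which makes the second messenger that activates RNase L, stood at 33.6 against 2.61 to 10.7 CPM. Zbp1, a sensor of Z-form nucleic acid, stood at 45.7 against 6.19 to 14.2 CPM, just under 3 times the next library. The antiviral effectors Ifit2 and Oasl2 and the virion tether Bst2 were also highest there, at 145, 86.5 and 114 CPM. The membrane proteins Ifitm1 and Ifitm2, which hinder viral entry, were lowest in library S6 instead, at 185 and 88.5 CPM against 272 to 364 and 118 to 170 CPM in saline.

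**Figure D2:**
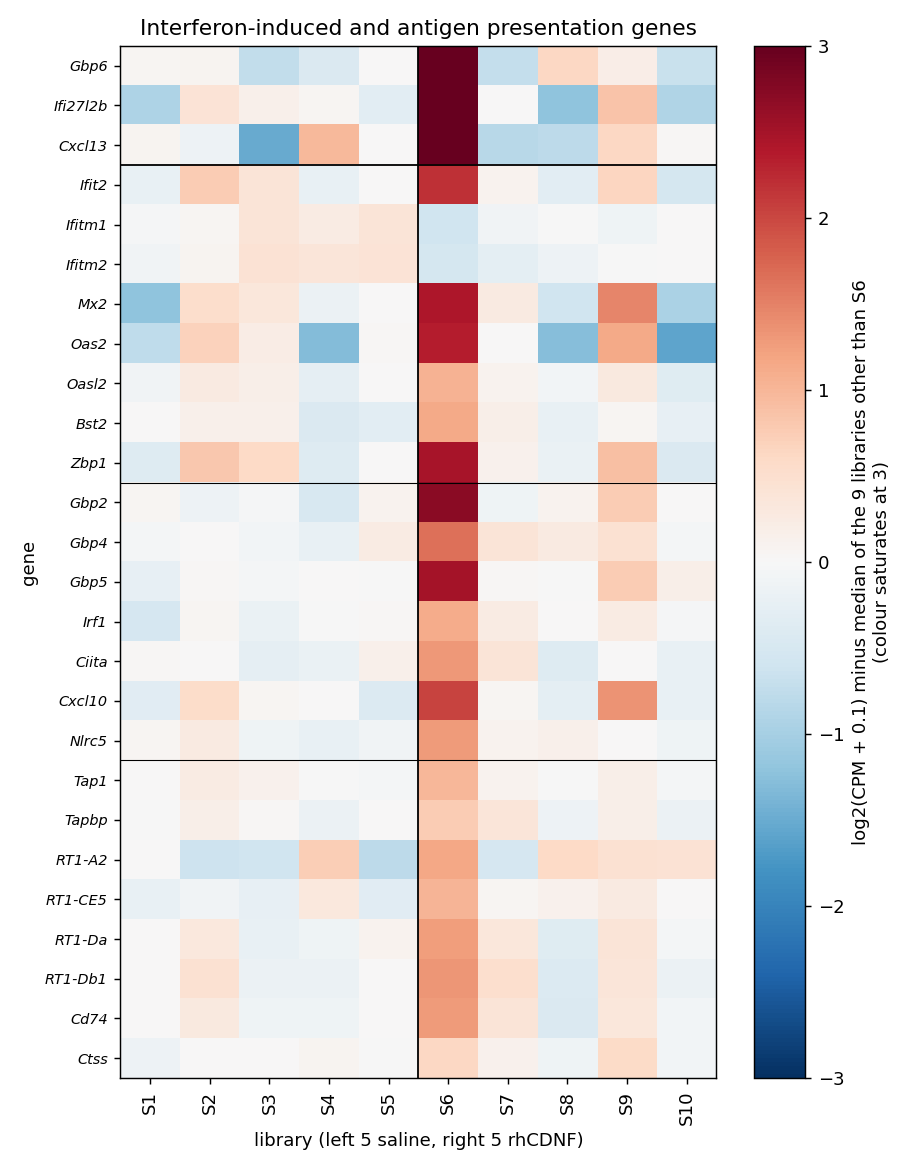
Level of each gene in each library as log2(CPM + 0.1) minus the median of the 9 libraries other than S6, with the 3 members on top, then type I, gamma-response and antigen presentation genes. The column of library S6 is dark for the members and red for most rows, while Ifitm1 and Ifitm2 are blue there, and library S9 is the next warmest column for Mx2, Oas2, Cxcl10 and Gbp2.

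Over all 10 libraries the fitted log2 fold change of the 15 genes had a median of 0.61, beside 0.00 for all genes tested. Of the 15, 13 had a value above 0, against 6144 of the 12199 genes tested. None passed the adjusted threshold in edgeR. At an unadjusted p under 0.05, Gbp2 (log2 fold change 1.26, SE 0.50), Gbp5 (1.13, SE 0.45), Gbp4 (0.71, SE 0.28) and Irf1 (0.50, SE 0.21) were on the higher side. Ifitm1 (-0.36, SE 0.12) and Ifitm2 (-0.43, SE 0.12) were on the lower side. Over all genes tested, 6.89% were on the higher and 5.49% on the lower side at that threshold. The 15 names came from the rows with the smallest p-values of this contrast, so these counts are descriptions and not a test.

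Without library S6 the median of the same 15 genes was 0.04, with a range of -0.36 to 0.39. Gbp5, Gbp2 and Gbp4 kept values of 0.33 (SE 0.14), 0.31 (SE 0.17) and 0.30 (SE 0.13), and Irf1 one of 0.24 (SE 0.11). Mx2 and Cxcl10 stood at 0.37 (SE 0.45) and 0.39 (SE 0.32), within or near their errors. Zbp1, Oas2, Oasl2 and Bst2 lay between -0.02 and 0.04, and Ifit2 at -0.14 (SE 0.25). Ifitm1 and Ifitm2 stayed at -0.27 (SE 0.09) and -0.36 (SE 0.11), so the sign of these 2 values did not rest on library S6.

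**Figure D3:**
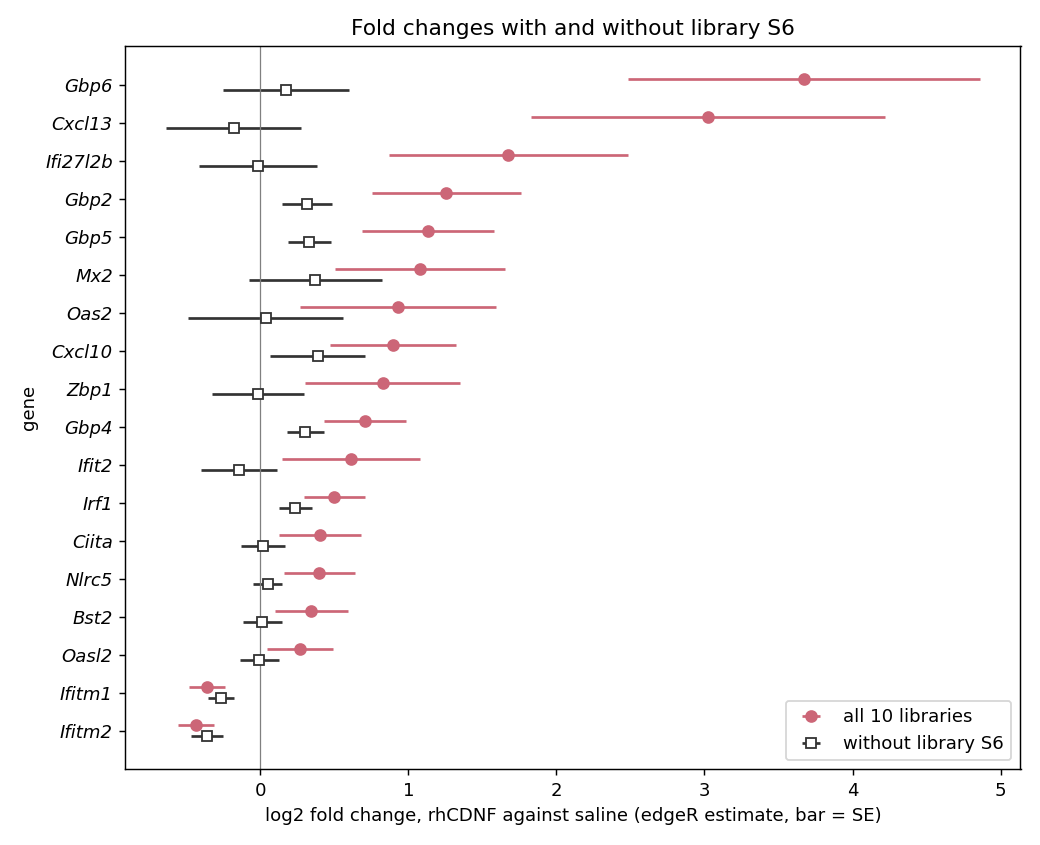
Fitted log2 fold change of rhCDNF against saline for each gene, with SE, over all 10 libraries (filled circles) and without library S6 (open squares). The members fall from 3.67, 3.02 and 1.68 to 0.17, -0.18 and -0.014, while Ifitm1 and Ifitm2 stay below 0.

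Library S9, also of the rhCDNF group, was the highest of the remaining 9 for 9 of these 15 genes and for Ifi27l2b, against 16.3% of all genes tested. Since the names came from the rows with the smallest p-values of this contrast, that share is not a comparable background. Mx2 reached 73.6 CPM there, Oas2 14.4 CPM and Cxcl10 46.6 CPM, each above every saline library. Gbp6 at 0.59 CPM and Cxcl13 at 2.38 CPM did not stand out in that library.

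The members therefore shared a top library but not the rest of their profile. Over the 10 libraries Pearson's r of log2 CPM was 0.83 between Gbp6 and Ifi27l2b, 0.91 between Gbp6 and Cxcl13 and 0.84 between Ifi27l2b and Cxcl13. Over the 9 others it was -0.19, 0.20 and 0.20. These are descriptions over libraries that share 1 extreme point, and Gbp6 then rests on 4 to 12 counts and Cxcl13 on 7 to 44.

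Below the top library, Ifi27l2b varied with some interferon genes of both lists and not with others. Over the 9 libraries r among the type I genes was 0.92 with Mx2, 0.85 with Ifit2, 0.82 with Zbp1, 0.81 with Oas2 and 0.70 with Oasl2, but 0.44 with Bst2, 0.29 with Ifitm2 and 0.08 with Ifitm1. Among the gamma-response genes it was 0.83 with Cxcl10, 0.58 with Gbp5, 0.53 with Irf1, 0.33 with Ciita, 0.22 with Gbp2, 0.19 with Gbp4 and -0.02 with Nlrc5. Of its 10 closest named genes, those outside the interferon lists were Htra3, a secreted protease (0.91), F10, coagulation factor X (0.89), Icoslg, the ligand of the costimulator Icos (0.86), Chsy1, a chondroitin synthase (0.85), Uba7, the activating enzyme of Isg15 (0.85), Smad3, a transducer of TGF-beta signals (0.85), and C3, the central complement protein (0.84). With genes that could not be named included, their ranks ran from 12 (Htra3) to 79 (C3) of 12199.

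Among named genes, Gbp6 was most like Nlrc5 (r = 0.95), Gbp2 (0.95), Ifnlr1, the receptor chain for lambda interferons (0.95), Plac8 (0.95) and Layn, a hyaluronan receptor (0.94), over 10 libraries. Over the same 10 libraries, the named genes most like Cxcl13 were Layn (0.95), Tnfrsf14, the receptor of the cytokine Light (0.94), and Plaat3 (0.94). Zc3hav1, an antiviral zinc-finger protein (0.93), and Ripk2, the kinase of Nod signalling (0.92), followed. These r values include the extreme point of library S6, for which both members were chosen. Over the 9 other libraries the closest named gene was Zfp61 for Gbp6 (0.77) and Clcn3 for Cxcl13 (0.80). With genes that could not be named included, these ranked 74 and 41 of 12199. Over the 9 libraries the median r with the 15 interferon genes was 0.10 for Gbp6, -0.10 for Cxcl13 and 0.53 for Ifi27l2b.

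**Figure D4:**
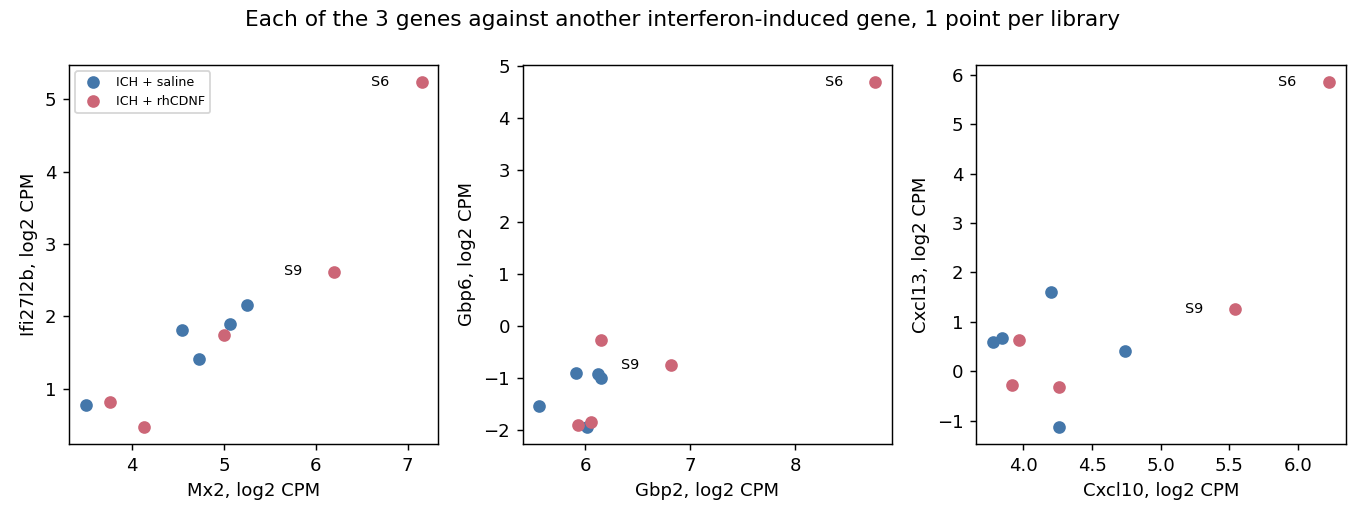
Log2 CPM of Ifi27l2b against Mx2, Gbp6 against Gbp2 and Cxcl13 against Cxcl10, 1 point per library, coloured by group. Library S6 sits at the top right of each panel, and over the other 9 libraries r is 0.92, 0.46 and 0.27 for the 3 pairs in that order.

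A total of 14 named genes exceeded the next library more than 3 times in library S6, the 3 members included. After the members came Kank4 at 4.82 times, Plac8 at 4.62, Mylk, the myosin light chain kinase, at 4.33, and Ifnlr1 at 4.19 times. Prnp, the prion protein gene, Gbp2, Tnfrsf14, the complement gene C4b, Gbp5, Layn and LOC685067 followed at 3.97 to 3.24 times. The log2 fold change of Mylk went from 1.57 (SE 0.60) to 0.47 (SE 0.27) without library S6, and that of Tnfrsf14 turned from 0.82 (SE 0.57) to -0.28 (SE 0.24).

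Antigen presentation genes were at their maximum in the same library. All 8 of the 20 listed genes that could be named were highest in library S6, against the background of 20.8%, with a median excess of 1.09 on the log2 scale beside 0.00 over all genes tested. The margin was as small as 1.03 times library S9 for the protease Ctss, and the names again came from the rows of smallest p-values. Cd74, the invariant chain of MHC class II, stood at 3067 CPM against 1154 to 1560 CPM in saline, and RT1-Da, a class II chain, at 1073 against 385 to 565 CPM. Tap1, the peptide transporter for class I, stood at 120 against 57.2 to 71.0 CPM. Without library S6 the median log2 fold change of the 8 genes was 0.08. Tlr7 and Tlr9, endosomal sensors of nucleic acid, were as high in library S9 as in S6, at 256 and 257 CPM for Tlr7 and 117 and 116 CPM for Tlr9. No interferon gene could be named in the table, so ligand levels were not analysed here.

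Other chemokines did not follow Cxcl13 as a class. Cxcl17, a mucosal chemokine, and Cxcl12, the ligand of Cxcr4, were highest in library S6, at 22.0 CPM (saline 3.07 to 8.25) and 12.8 CPM (saline 2.47 to 5.59). Of the monocyte attractants, Ccl3 was highest there at 542 CPM, and Ccl4 was higher in library S9, at 263 against 217 CPM. The chemokine receptor Cxcr4 was lowest in library S6 at 389 CPM against 670 to 806 CPM in saline, and the neutrophil chemokine Cxcl1 was lowest there at 65.6 CPM against 90.3 to 136 CPM. The receptor of Cxcl13, Cxcr5, was not among the names that could be tied.

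Some cell type markers were at their highest or lowest in library S6. In bulk RNA, more cells of a type and more RNA per cell cannot be told apart. The summed level of the 7 of 12 microglial and myeloid markers that could be named was 4951 CPM in library S6 and 5490 in library S9, against 3105 to 3833 CPM in saline and 3428 CPM in the lowest rhCDNF library. Most of that sum was Csf1r, at 3179 CPM in S6 and 3690 CPM in S9. Library S6 was the highest for 2 of the 7, Sall1 and Cx3cr1, and S9 for the others. Sall1, the transcription factor of microglial identity, stood at 521 CPM in S6 and 414 CPM in S9 against 178 to 246 CPM in saline. The summed level of 4 of 10 monocyte and macrophage markers was 399.7 CPM in library S6, against 762 to 853 CPM in saline and 668 to 768 CPM in the other rhCDNF libraries. Emilin2, F5 and Mrc1 were each lowest in library S6, at 131, 80.7 and 148 CPM, while F10 was highest at 39.7 CPM.

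Of 18 T and NK cell markers 1 could be named, Cd8a, which rat macrophages can also carry, and it was lowest in library S6 at 40.9 CPM against 86.1 to 220 CPM in saline. None of the B cell, dendritic cell or neutrophil markers could be named. The supplementary rows used held 0 of 8 B and plasma cell, 1 of 10 dendritic cell and 0 of 11 neutrophil marker names. Those rows are the genes of smallest adjusted p, so the lack of a name does not show that a transcript was absent. Naming also required counts above 0 in every library, so a marker absent from any library could not be named. The 3 of 14 non-myeloid brain markers summed to 107 CPM in library S6, within the range of the other libraries (44.6 to 118 CPM). The part of these marker differences in the levels of Gbp6, Ifi27l2b and Cxcl13 was not tested. Itgam, which encodes CD11b, could not be named. Csf1r, the receptor that sustains myeloid cells, was at 2210 to 3690 CPM in every library. Without libraries of unsorted cells these levels cannot check the selection.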

How the data were processed

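RNA-sequencing of CD11b+ cells gave 10 libraries. Per the labels and the submitters' processing notes, reads were trimmed (Trimmomatic 0.36), aligned to Rnor_6.0 (STAR 2.5.3a) and counted per Ensembl gene (Subread 1.6.4), and the deposited values are raw counts with no normalization. Whether counting used strand is not given in the sources used here. All count columns were mapped to a group, 0 were left unused, and the mapping came from library numbers that the study's supplementary table lists by group. The columns carry no replicate number.

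The groups were compared with edgeR 4.0.16 under R 4.3.3 (filter by expression, TMM, quasi-likelihood test, Benjamini-Hochberg adjustment, threshold 0.05), with DESeq2 1.42.0 and limma 3.58.1 as alternatives. Log2 CPM carried a prior count of 2, and CPM the TMM scaling. The edgeR procedure was run on simulated counts in which each change was shared by the whole rhCDNF group. No library was made to stand apart there, so that run does not cover a signal held by 1 library. The p-values set the difference between the groups against the spread between libraries within them.

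Identifiers were tied to names by values. The SD of the log2 ratio to the study's supplementary table over the libraries had to be mutually smallest, with the next best at least 1.5 times as large, which tied 789 of 1904 names. Cxcl13 failed this gap on 1 side and was tied by a rule added later, a misfit of its counts at least 3 times as large for the next name. No value of that table is given. Those rows, 1998 in all, are the genes of smallest adjusted p. The names given were the 3 members, all tied genes of the interferon, antigen presentation, ligand and chemokine lists, the genes most like each member and those over 3 times the next library in library S6, with markers of other cell types beside them. Members and lists were chosen with earlier results of these data known. Coordinates of promoters are those of RefSeq on GRCr8 and were not set beside Rnor_6.0.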

Additional observations from a re-analysis of the deposited data

Results flagged for a closer look

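Of 36 pairs of a gene and a group examined among the members and the named interferon genes, 5 had a library whose gap to its nearest neighbour, divided by the range of the group, exceeded the 95% critical value of Dixon's test for 5 samples, 0.71. Gaps and ranges were taken on log2 CPM, and the count of pairs depends on that scale. Chance gives about 1 in 20 for groups not chosen on their values, and genes of 1 library are not independent. Gbp6 and Cxcl13 were chosen for the level of library S6, and the other genes are described here for the same library, so these values restate that choice and are given as a description. All 5 were library S6 in the ICH + rhCDNF group. It was the highest library for Gbp6 (0.789), Cxcl13 (0.760), Irf1 (0.745) and Nlrc5 (0.790), and the lowest for Ifitm1 (0.798).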

How the results depend on the processing

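The count of genes called was 0 in edgeR with library totals only, with no filter and with each library left out, and 0 in limma-voom with library weights, while DESeq2 called 8. The log2 fold change of Ifi27l2b ranged from -0.014 (without library S6) to 1.96 over the left-out libraries, and that of Cxcl13 from -0.18 (without library S6) to 3.39. Gbp6, fitted only with no filter, fell from 3.67 to 0.17 without library S6, an alternative added after the data were seen. The other left-out libraries, DESeq2 and the scaling alternatives were not run for Gbp6, because it did not pass the filter. DESeq2 gave Cxcl13 no adjusted p. The median of the 16 tested interferon genes moved from 0.66 to 0.03 without library S6 and to 0.12 with library weights. The excess of library S6 kept its direction with library totals alone and with a prior count of 0.5. No paired analysis was possible because the columns of the count table carry no replicate number. Depth limits Gbp6 outside library S6, where 4 to 12 counts cannot resolve an order.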
